A study of Caenorhabditis elegans with 2 samples.

Results

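Pumilio family genes (PUF genes) of Caenorhabditis elegans were examined for peaks of the nuclear hormone receptor NHR-11, and puf-9 alone of the 9 genes carried a strong one. The 9 are puf-3, puf-5, puf-6, puf-7, puf-8, puf-9, puf-11, fbf-1 and fbf-2, among 19973 annotated protein-coding genes. They were taken by gene name, with earlier results of these data known, and the peaks described here were chosen by their measured summit positions. A summit counted for a gene when it lay in the gene body or in a promoter window that began 1000 bp before the annotated start and ended 200 bp after it. The group was whole L4 larvae of strain OP305, labelled as mixed sex, in 2 biological replicates. All animals carried the mutation unc-119(ed3) on III and the insertion wgIs305, which supplies NHR-11 fused to green fluorescent protein (eGFP). The labels name neither the promoter nor the copy number of the insertion, and give the age as unknown. There was 1 group, so no condition was compared. Peaks of whole larvae do not say in which cells the receptor sat on the DNA, and the lists hold no expression values by which tissue or stage could be checked.

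PUF proteins bind short elements in the 3′ untranslated ends of messenger RNAs and mostly lower the translation or stability of those messages. In C. elegans most members act in the germ line. The near-identical proteins FBF-1 and FBF-2 keep germline stem cells from differentiating. PUF-3 and PUF-11 act beside them, PUF-8 acts in germ cells as they divide and become spermatocytes, and PUF-5, PUF-6 and PUF-7 act in growing oocytes. PUF-9 is known for somatic work, restraining hbl-1, a regulator of larval timing. NHR-11 is a DNA-binding protein, so a peak here concerns the gene's DNA and not the RNA that PUF proteins bind.

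The sequences below carry the summits on which the results turn, read from the WBcel235 genome on the strand of each gene. The first spans 100 bases on either side of the pooled summit of puf-9 (chrX:5841201-5841401, plus strand), the strongest summit of the family. The second spans 50 bases on either side of the pooled summit of puf-12 (chrII:10100083-10100183, plus strand), a relative outside the members shown for contrast. The third does so for the weak summit that replicate 2 alone had before fbf-2 (chrII:6091585-6091685, minus strand). Capitals mark a match to any of 10 searched motifs, and the middle base of each run is the summit.
puf-9: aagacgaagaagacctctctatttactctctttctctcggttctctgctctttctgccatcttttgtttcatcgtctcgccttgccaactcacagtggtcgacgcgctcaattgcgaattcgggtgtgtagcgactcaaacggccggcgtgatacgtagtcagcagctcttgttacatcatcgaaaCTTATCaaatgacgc
puf-12: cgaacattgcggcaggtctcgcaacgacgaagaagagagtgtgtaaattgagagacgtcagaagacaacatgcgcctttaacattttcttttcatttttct
fbf-2: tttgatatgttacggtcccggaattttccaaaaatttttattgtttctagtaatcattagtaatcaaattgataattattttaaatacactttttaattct

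The lists give a signal value per peak, a strength on a scale that is not stated, and no read counts, so sequencing depth is unknown. Replicate 1 contributed 19074 regions, weak ones included, with a median signal of 14.5, and replicate 2 contributed 22137 with a median of 12.98. A further list, made from the alignments of both together and called the pooled list here, had 13558 regions with a median of 30.6. The thresholded list held 2719 peaks, which were the pooled peaks with a signal of 54.9 or more. Signal values are the authors' own, and they were compared within a list and not between lists. No control library was analysed here.

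Of the 9 PUF genes, 1 had a summit of the thresholded list, puf-9, against 10.6% of all protein-coding genes. The same gene was the single one with a pooled summit, where the share of all genes was 36.3%. In the lists of the replicates, 1 of 9 had a summit in replicate 1 (47.1% of all genes) and 3 of 9 in replicate 2 (50.8% of all genes). Summits in both replicates' lists occurred at 1 of 9, puf-9 again, against 35.6% of all genes. The thresholded count lies near the share of all genes and so is no result about the family. The windows of the 9 genes were 2856 to 5396 bp long, with a median of 3581 bp, against a median of 3027 bp over all genes. These counts describe genes picked with results known, and no test was made on them.

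**Figure D1:**
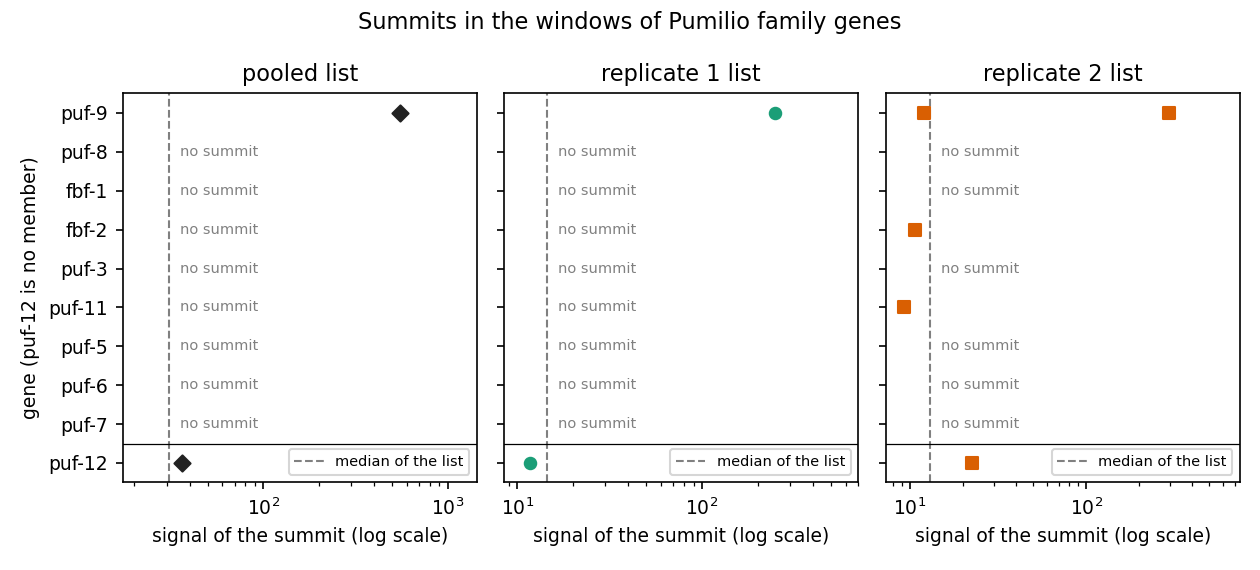
Signal of each summit inside the window of each family gene (rows) in the pooled list and the lists of replicates 1 and 2 (panels, log scales), with the median of each list as a dashed line. The strongest point of puf-9 stands far to the right in all 3 panels (549.8 in the pooled list), while fbf-2 and puf-11 have a point in replicate 2 alone, below its median of 12.98. The point of puf-12 lies below the median in replicate 1 (11.8) and above it in replicate 2 (22.6) and in the pooled list (36.1).

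The gene puf-9 (WBGene00004245) lies on X from 5841592 to 5845987 on the plus strand. Its signal was 249 in replicate 1, 296 in replicate 2 and 549.8 in the pooled list. Each of these stood far above the median of its own list, by 17.2 times in replicate 1, 22.8 times in replicate 2 and 17.9 times in the pooled list. The peak ranked 11 of 19074 in replicate 1, 8 of 22137 in replicate 2 and 8 of 13558 in the pooled list. Just above it in the pooled list stood a summit whose nearest start was that of nhr-19, a nuclear hormone receptor gene (621), and just below it one nearest to the histone gene his-37 (543). The deposited −log10 q value of the pooled peak was 3.52, a maximum that it shared with 1675 pooled peaks in all, so q does not rank it. Over all protein-coding genes, 8 had a pooled summit in their window as strong as that of puf-9 or stronger, puf-9 included.

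Among summits on X the puf-9 peak ranked 1 of 2898 in the pooled list. It ranked 2 of 3900 on X in replicate 1, behind a summit nearest to the start of C30E1.4 (signal 254), and 1 of 4574 in replicate 2. It is the sole PUF gene of the 9 on X.

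**Figure D2:**
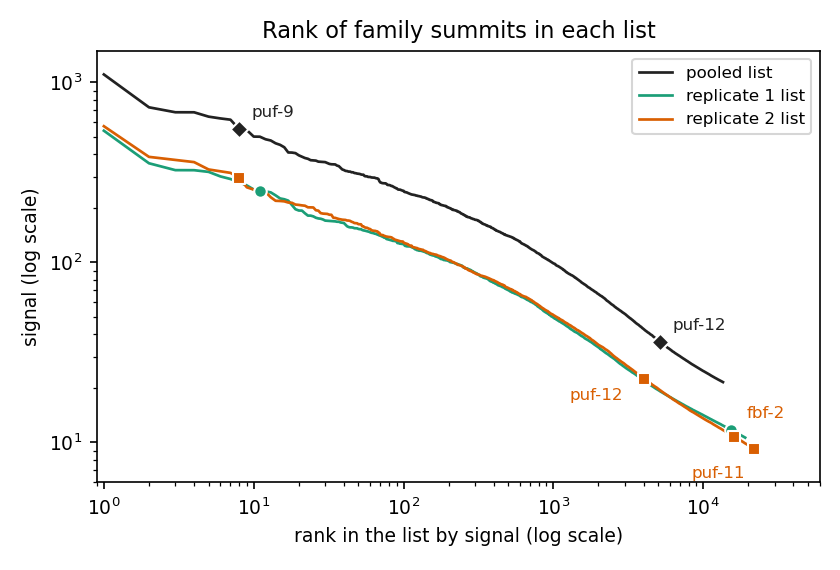
Signal (log scale) against rank by signal (log scale) for every peak of the pooled list and of both replicates' lists, with family summits marked by list. The 3 summits of puf-9 lie at ranks 8, 11 and 8, at the steep upper end of the curves, while those of fbf-2 and puf-11 in replicate 2 lie near the lower end at ranks 16151 and 21709.

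The 3 calls of the puf-9 summit fell close together. The pooled summit was at 5841301, 291 bp before the annotated start. That of replicate 1 was at 5841325, 267 bp before it, and that of replicate 2 at 5841304, 288 bp before it. Over the 1654 genes with a thresholded summit in the promoter window, 1572 had their strongest one before the start (95.04%), at a median distance of 265 bp and quartiles of 153 and 469 bp. The distance at puf-9 therefore lay inside the middle range of such genes. The first codon of puf-9 lies 316 bp beyond the pooled summit, and the annotation gives the gene a single transcript.

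The puf-9 peak was narrower than most. It spanned 223 bp in the pooled list (5841199 to 5841421), 137 bp in replicate 1 and 218 bp in replicate 2, against a median of 376 bp in the thresholded list. That median was a single width shared by 2655 of the 2719 thresholded peaks and also the largest, so it is not the middle of a spread of widths. The other 64 were narrower. Of these 64, 23 were among the 25 strongest peaks, so a narrow interval went with a strong signal in this list.

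The puf-9 summit also lay inside annotated noncoding genes. W06B11.7 (5841170 to 5841350, minus strand) and W06B11.9 (5841185 to 5841361, plus strand) overlap one another, and both hold the summits of the pooled list and of both replicates. Their functions are not given by the annotation. Among all thresholded summits, 226 of 2719 (8.31%) lay inside a gene of this class, and 49 (1.80%) inside such genes of both strands, as at puf-9. The closest other protein-coding start was that of dct-11 on the opposite strand, 1523 bp from the pooled summit, so no other protein-coding gene shared the peak within 1000 bp.

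**Figure D3:**
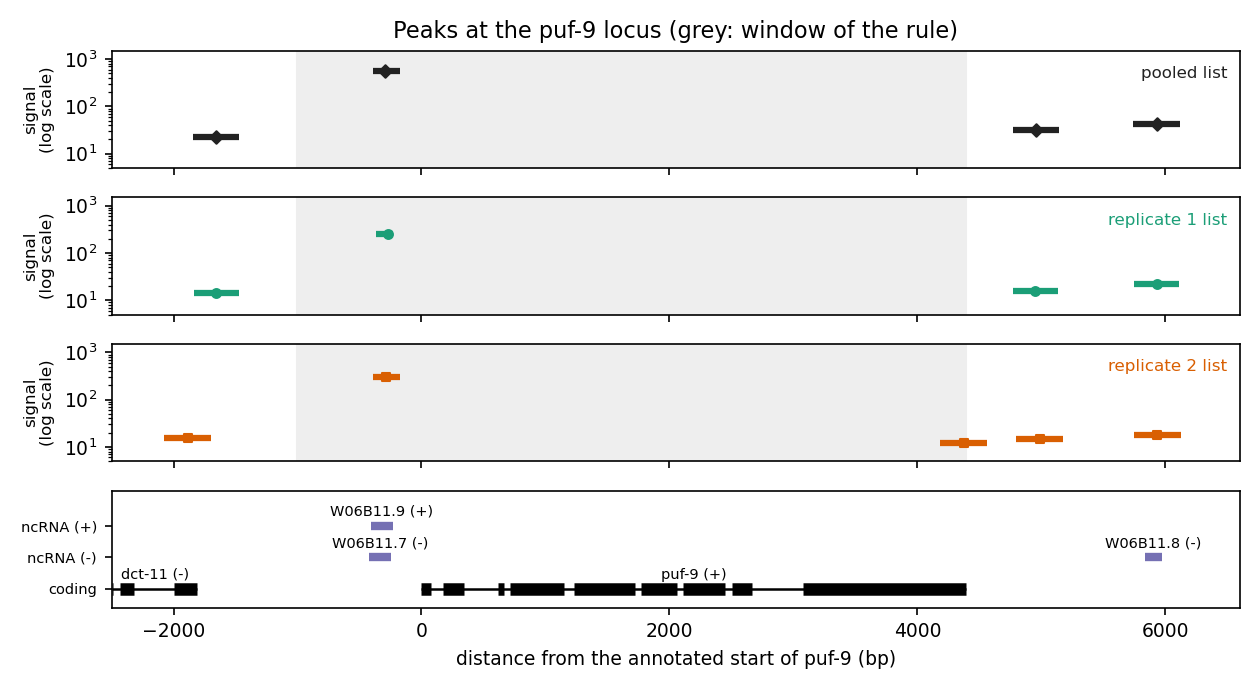
Peaks around puf-9 by distance from its annotated start in bp, drawn as bars over each peak's extent at the height of its signal (log scale), with a marker at the summit, for the pooled list and both replicates, above the annotated coding genes (thick parts are exons) and noncoding genes. The strong peak 291 bp before the start coincides with W06B11.7 and W06B11.9, and the body of puf-9 holds no peak until a weak region at its far end in replicate 2.

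Elsewhere in the window of puf-9 little was listed. Replicate 2 had a second, weak region at 5845964, in the 3′ untranslated part of the last exon, with a signal of 12.01 and rank 12930. Neither the pooled list nor replicate 1 had a summit there. Past the end of the gene, weak regions recurred in all 3 lists 557 to 593 bp beyond it, with signals of 30.9 (pooled), 15.9 (replicate 1) and 14.8 (replicate 2). A stronger region, inside the noncoding gene W06B11.8, also recurred in all 3 lists 1535 to 1539 bp past the end, with signals of 43.0 (pooled), 22.3 (replicate 1) and 17.8 (replicate 2). The next thresholded summit lay 4.12 kb before the puf-9 peak (signal 98.7), and the next after it 101.1 kb away (signal 158).

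The sequence under the puf-9 summit matched few of the searched motifs. Elements known for nuclear receptors were AGGTCA with its longer form TCAAGGTCA, which contains it, and the DAF-12 element AGTGCA. The others were the GATA factor element GATAAG, the E-box known as CACGTG, the AP-1 element given by TGACTCA, the GA repeat written GAGAGAG, the Sp1 type of element GGGCGG, the TATA box spelled TATAAA and, as the DNA letters of the RNA element that PUF proteins read, TGTANATA. Each was searched on both strands. Within 50 bp of the summit none of the 10 was present at puf-9, puf-12 or the weak summits of fbf-2 and puf-11. Over all thresholded summits, windows of that size held AGGTCA in 2.65%, AGTGCA in 5.33%, GATAAG in 4.71%, CACGTG in 5.99%, GAGAGAG in 14.8%, GGGCGG in 5.59% and TATAAA in 4.16%. The shares for TGACTCA, TGTANATA and TCAAGGTCA were 1.36%, 0.956% and 0.0368%. Within 100 bp, the puf-9 window held 1 match, GATAAG on the minus strand (bases 187 to 192 of the printed run, centred 88.5 bp from the summit), a motif of 9.78% of such windows. A match is only a run of letters, and the want of one says only that these letters are not in the window. GC content of the puf-9 window was 48.3%, against a median of 43.8% over thresholded summits, of which 668 had a higher value and 1982 a lower one.

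Among the genes outside the family, those most like puf-9 in their signal were his-37, rpl-15, K11H12.8 and rps-12. Likeness was the distance between log2 signals of the strongest promoter summit in the pooled list and in both replicates, over 3931 genes with a summit in all 3 lists, so it rests on 2 samples. The closest was his-37 on V, which encodes a histone (549.8 at puf-9 and 543 at his-37 in the pooled list, distance 0.24). Next were rpl-15 and K11H12.8 on IV, which share a single peak (500.3, distance 0.30), and rps-12 on III (484, distance 0.31). The genes rpl-15 and rps-12 encode ribosomal proteins.

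The stem cell regulators fbf-1 and fbf-2 had no summit in the pooled list. The gene fbf-1 (WBGene00001401; II, 6078263 to 6080843, minus strand) had none in any list, and its nearest pooled summit lay 15.8 kb outside its window. The gene fbf-2 (WBGene00001402; II, 6088863 to 6091480, minus strand) had a summit in replicate 2 alone, at 6091635, 155 bp before the start. Its signal was 10.7 at rank 16151 of 22137, below the median of that list. The start of nspg-3 on the other strand is closer to that summit, at 132 bp. Replicate 1 and the pooled list had nothing in the fbf-2 window, with nearest summits 5.08 and 5.21 kb outside it.

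The other germline members of this kind were likewise without a pooled summit. The gene puf-3 (WBGene00004239; IV, 13510307 to 13512162, minus strand) lies inside afmd-2, which runs on the other strand. It had no summit in its window in any list. Just outside, a weak pooled summit stood 1232 bp before its start (signal 22.3, rank 12711 of 13558), in the 3′ untranslated part of dcap-2, and replicate 1 had one 1222 bp before it (signal 16.5). Its near copy puf-11 (WBGene00022257; IV, 6421585 to 6423497, plus strand) had a summit in replicate 2 alone, 697 bp before the start, inside the end of the neighbouring gene htp-2. Its signal of 9.23 and rank of 21709 of 22137 put it close to the floor of that list, which was 9.13.

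The gene puf-8 (WBGene00004244; II, 7296110 to 7298247, minus strand) had no summit in its window in any list. In replicate 2 a weak region (signal 10.1) lay 1457 bp before its start, inside the neighbouring gene C30G12.1. The nearest pooled summit was 2.65 kb outside the window.

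The genes puf-5, puf-6 and puf-7, named above for growing oocytes, had no summit in their windows in any list. The gene puf-5 (WBGene00004241; II, 8575541 to 8577787, plus strand) had the summit closest to its window. A pooled summit (signal 24.0, rank 10897) lay 98 bp past its end, and one of replicate 2 (signal 20.5) 84 bp past it, while replicate 1 had none within 3000 bp of the gene. The start of the next gene, F54C9.9, was 164 bp beyond that pooled summit. The genes puf-6 (WBGene00004242; II, 13039792 to 13043445, minus strand) and puf-7 (WBGene00004243; IV, 5486713 to 5490322, plus strand) had nearest pooled summits 8.55 and 11.5 kb outside their windows.

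**Figure D4:**
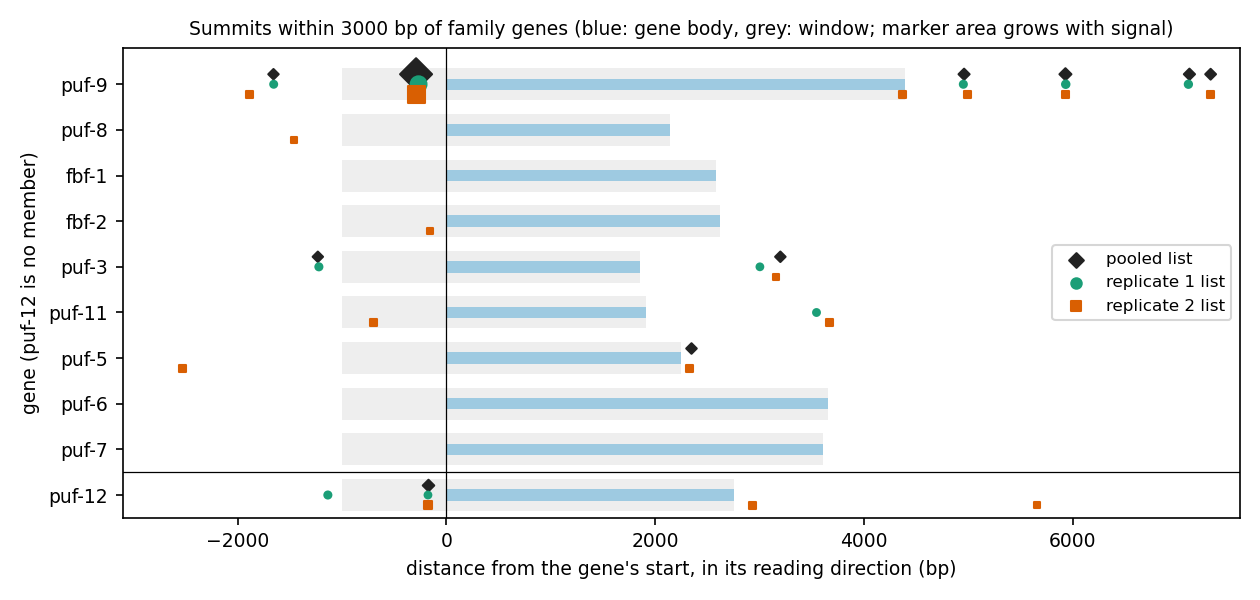
Summits within 3000 bp of each family gene by distance from its start in bp, in reading direction, for the pooled list and both replicates, with gene bodies in blue, windows in grey and marker area growing with signal. Only puf-9 among the 9 genes has pooled or replicate 1 summits inside its window, and the pooled summits nearest to the others are just outside those of puf-5 (98 bp past the gene) and puf-3 (1232 bp before the start).

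Some members share much of their sequence, which bears on what the lists can show. Coding sequences of puf-6 and puf-7 were 98.5% identical over 1455 bases, those of fbf-1 and fbf-2 91.7%, and those of puf-3 and puf-11 90.2%. The highest value of puf-9 was 47.9%, with puf-8, and its lowest 41.8%, with puf-3. Its 46.5% with puf-12 lay between these. The lowest values of all pairs were those of puf-12 with puf-6 (37.7%), puf-7 (38.3%), puf-3 (40.3%) and puf-11 (41.6%). The highest value of puf-12 was 46.7%, with fbf-2. Of the 30-base words in the promoter window of puf-6, 26.5% occurred once in the genome, and in that of puf-7 26.4%. Their gene bodies gave 35.4% and 34.7%. The promoter window of fbf-1 gave 62.7% and that of fbf-2 96.8%, with 67.8% and 68.5% in the bodies. The windows of puf-5, puf-8 and puf-9 were unique throughout, those of puf-3 and puf-11 over 95.3% and 95.7% of their words, and the median over all genes was 99.4%. Genes with under 50% unique words in their window had a pooled summit in 28 of 599 cases, which is 4.67%, against 36.3% of all genes. This limit was chosen after the data were seen. How reads that match several places were treated is not given in the sources used here, so the part of shared sequence in the empty windows of puf-6, puf-7 and fbf-1 was not tested. The windows of puf-5 and puf-8, unique throughout, also held no summit, though the extent of a pooled peak overlapped that of puf-5.

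**Figure D5:**
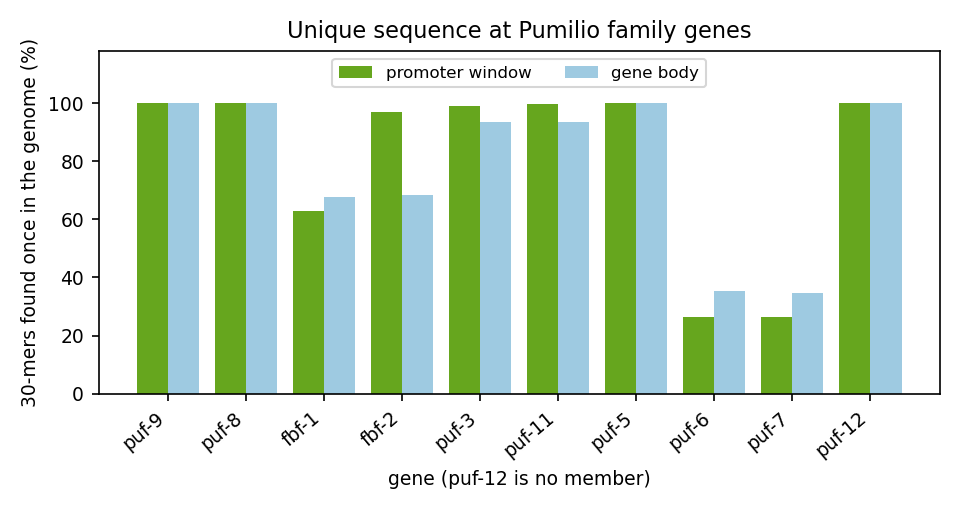
Share of 30-base words that occur once in the genome (percent), in the promoter window and the body of each family gene. The bars of puf-6 and puf-7 reach 26.5% and 26.4% in the promoter window, those of fbf-1 62.7%, and those of puf-5, puf-8, puf-9 and puf-12 reach the top.

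The relative puf-12 (WBGene00014165; II, 10100310 to 10103061, plus strand) is the other protein-coding gene with a name of this kind, and it was set beside the 9 for contrast. It had a summit in all 3 lists, 177 bp before the start in the pooled list and replicate 1 and 175 bp before it in replicate 2. Its signal was 11.8 in replicate 1, 22.6 in replicate 2 and 36.1 in the pooled list, where it ranked 5187. The pooled value lay under the 54.9 at which the thresholded list begins. The start of pas-7, a proteasome subunit gene on the other strand, was 279 bp from the pooled summit. Like that of puf-9, its summit lay inside a noncoding gene, here ZK945.13.

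Genes listed as PUF partners or for the repression of messages carried thresholded summits at 7 of 23 genes (30.4%), against 10.6% of all genes. They carried pooled ones at 14 of 23 (60.9%), against 36.3%. The list holds genes of PUF partners together with other genes of message repression, so its counts do not concern partners alone. Its windows had a median length of 4740 bp, against 3027 bp over all genes, and the part of window length in these counts was not tested. The strongest lay 502 bp before ifet-1, a translational repressor related to the eIF4E transporter (signal 437), but nearer to the ribosomal protein gene rps-1. The next were at ntl-2, of the CCR4-NOT deadenylase (419 bp before the start, 181), at nos-3, a Nanos protein that joins FBF (45 bp before it, 167), and at cgh-1, a DDX6-type helicase (756 bp before it, 154). The puf-9 signal of 549.8 exceeded all of these in the pooled list. The thresholded summits of gld-2 and ntl-3 lay 11291 and 10195 bp inside those genes, and that of ntl-3 was nearest to the start of rsp-8. Several weaker pooled summits of the list were likewise nearest to the start of another gene.

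Messages reported as targets of FBF or PUF proteins came from 16 genes, of which 2 had a thresholded summit (12.5%) and 6 a pooled one (37.5%), both near the shares of all genes. The strongest was at mpk-1, the ERK kinase gene, 4271 bp inside it (signal 240.2), followed by egl-4, a cGMP-dependent kinase gene (9962 bp inside, 131). The synaptonemal complex gene syp-2 (26.7) and the phosphatase gene lip-1 (24.5) had weak pooled summits. The genes gld-1, fem-3 and hbl-1 were not among the 6. Notch signalling genes of the germline niche had 1 thresholded summit among 8 genes (12.5%), at lag-1, the DNA-binding effector of the pathway (100.5), and 2 pooled ones (25%), the other at sel-8 (36.4). Over all genes these shares were 10.6% and 36.3%. The windows of the 8 genes had a median length of 10355 bp, the longest of the 5 lists, against 3027 bp over all genes.

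A list drawn up for other RNA-binding proteins of the germ line held 19 genes, and whether each acts there was not checked. Thresholded summits occurred at 2 of the 19 (10.5%), asd-2 (signal 107) and atx-2 (96.4). Pooled ones occurred at 5 of 19 (26.3%), with etr-1 (49.6) and spn-4 (26.4) next. The asd-2 summit lay 10006 bp inside the gene and was nearest to the start of C48B6.4. Those of atx-2 and spn-4 were nearer to the starts of ecps-1 and spe-39. The thresholded share lay near the 10.6% of all genes, and the pooled share was below their 36.3%. Among RNA-binding proteins of somatic tissues and neurons, 1 of 12 had a thresholded summit (8.33%), lin-28 of larval timing (112), and 11 of 12 a pooled one (91.7%), against 10.6% and 36.3% of all genes. Next among these were asd-1 (45.2), sup-12 (43.6) and mec-8 (42.7). Several weaker pooled summits of this list were nearest to the start of another gene, and they lay as far as 23831 bp inside the listed gene. The windows of those 12 genes had a median length of 8464 bp, against 3027 bp over all genes, and the part of window length in that count was not tested.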

How the data were processed

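ChIP-seq peaks of eGFP-tagged NHR-11 in 2 biological replicates of L4 larvae were taken from the authors' narrowPeak lists in build ce11. Per the labels' file notes, the list of each replicate came from its alignments and 1 further file whose content is not described, the pooled list from both alignments and that file, and the thresholded list, by irreproducible discovery rate, from these 3 lists. For the aligner and caller, a name is not given in the sources used here. The deposited signal value and the deposited −log10 q value of each peak were used as given. Depth is unknown. Lists in ce10 were not used here.

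Genes came from Ensembl release 115 (WBcel235). All peaks fitted within the chromosomes of this build, and of 31853 coding transcripts 99.8% had an ATG at the annotated first codon. Summits were assigned with Python 3.11.15 scripts, checked on simulated summits. A summit counted for every gene whose window held it. Coding sequences were aligned globally with Biopython 1.88, and 30-base words were counted on both strands. Family genes, genes near their summits, up to 4 genes per list with the strongest pooled summit and the 4 genes most like puf-9 are named. The genes gld-1, fem-3, hbl-1, gld-2, ntl-3 and C30E1.4 and the rank neighbour nhr-19 are named besides, picked with their values known. Members, lists and motifs were chosen with earlier results of these data known. The names ntl-1 and hrp-1 matched no annotated gene and were left out. There was a single group, so no test was made. Alternatives changed the window, the position taken for a peak, the list and the motif window.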

Additional observations from a re-analysis of the deposited data

How the results depend on the processing

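The count of members with a thresholded peak was 1 under every alternative run. No thresholded summit lay nearer than 5.02 kb to the window of another member, so changes of window or position could not add one. Under changes of window, position or assignment, the thresholded share of all genes ran from 8.10% (nearest starts only) to 13.4% (the widest window). The pooled count of 1 member became 2, with 3 peaks, when the promoter window ran from 2000 bp before the start to 500 bp after it (puf-3 was added, and a second summit of puf-9), and 2, with 2 peaks, when any overlap counted (puf-5 was added). The pooled share of all genes was 42.8% with that wider window and 39.2% with any overlap, against 36.3% by the rule used. With a single replicate's list it ranged from 1 to 3 members and from 1 to 4 peaks, the additions being fbf-2, puf-11 and the weak region at the end of puf-9 in replicate 2. Within the single lists, the wider window added puf-3 in replicate 1 and puf-8 in replicate 2, and any overlap added puf-5 in replicate 2. In replicate 2, puf-11 was lost with a window from 500 bp before the start to 100 bp after it, and fbf-2 with nearest starts only. The puf-9 signal ranged from 249 to 296 and its rank from 8 to 11 in single replicates. The share of all genes with a thresholded peak was 5.84% when only thresholded peaks above the list's median signal were kept. Starts of every transcript lie inside the window and could not change a count. Within 100 bp of summits the motif shares were 6.36% for AGGTCA, 0.0736% for TCAAGGTCA, 10.004% for AGTGCA, 9.78% for GATAAG, 9.34% for CACGTG, 2.91% for TGACTCA, 23.8% for GAGAGAG, 9.45% for GGGCGG, 11.8% for TATAAA and 2.57% for TGTANATA, since longer windows hold more words. The scale of the signal is not stated, so the values of single replicates were not set against the pooled ones. Without read counts, an empty window cannot be told from one below the reach of the calling.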
